A study of Mus musculus with 36 samples.

Results

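The genes described here were 9 genes that are best known from pigment cells and from the neural crest cells they descend from: Dct, Tyrp1, Tyr, Pmel, Mlana, Mitf, Kit, Ednrb and Pax3. They were matched by symbol to Ensembl identifiers, and all 9 were among the 52636 genes counted. The genes were chosen on readings of these same libraries, in particular the level of Dct in PSCs against both other cell types, so the differences between cell types given for them are descriptions and carry no test. RNA was sequenced from skeletal muscle cells of mice that carry S100β-GFP together with NG2-dsRed, where GFP follows the S100b promoter and dsRed the promoter of Cspg4, the gene of NG2. FACS separated S100β-GFP+;NG2-dsRed+ perisynaptic Schwann cells (PSCs), the glia that cap the neuromuscular junction, from S100β-GFP+ Schwann cells and from NG2-dsRed+ cells. All animals carried both transgenes, no treatment was given, and each library came from the cells of a single mouse. The methods give an age of P15 to P21, whereas the age ranges written in the labels end between day 21 and day 46. Of 36 libraries named in the labels, 27 were counted: 9 of PSCs, 8 of S100β-GFP+ Schwann cells and 10 of NG2-dsRed+ cells. The methods describe the removal of failed libraries and keep fewer of S100β-GFP+ cells than the table holds, without naming any, so the 8 may include a library that the study set aside.

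Melanocytes and Schwann cells are both made by the neural crest, and melanocytes can arise from Schwann cell precursors along nerves. In a pigment cell, MITF switches on the enzymes and structural proteins of the melanosome, the organelle in which tyrosinase starts melanin synthesis and the related enzymes TYRP1 and DCT complete it. PAX3 and SOX10 act upstream of Mitf, and the receptors KIT and EDNRB receive the ligands on which migrating melanoblasts depend. Several of these genes have other well known homes: Mitf in macrophages, Kit in mast cells, Ednrb in endothelium and Pax3 in muscle progenitors.

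In PSCs the defining genes of melanocytes did not appear together. The 9 PSC libraries held 5355 counts of Dct and 1518 counts of Tyrp1, but 1 count of Tyr and 1 count of Mlana in all, and no PSC library had counts of all 5 markers (Dct, Tyrp1, Tyr, Pmel and Mlana). All 5 were found together in S100β-GFP+ libraries 3, 11, 22 and 27 and in NG2-dsRed+ library 26, each at low counts. The data thus go against a melanocyte label for PSCs, and the group is called by its genes below. Schwann cell genes were present in PSCs: Sox10, the transcription factor of the glial lineage, was at 379 to 703 CPM (counts per 1000000, after TMM scaling) in PSC libraries, 5.57 to 38.8 CPM in S100β-GFP+ libraries and 1.46 to 9.79 CPM in NG2-dsRed+ libraries. S100b, whose promoter drives the GFP used for sorting, was at 57.0 to 566 CPM, 9.88 to 40.9 CPM and 1.23 to 17.8 CPM.

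Library depth was 5334916 to 9592875 gene counts for PSCs, 5221655 to 9411399 for S100β-GFP+ Schwann cells and 5712256 to 7918320 for NG2-dsRed+ cells, so values of a few CPM rest on few counts. Some differences between libraries touch the values that follow. Lars2, Gm23935 and Gm15564 together took 3.64% to 36.6% of the counts of a PSC library. The S100β-GFP+ libraries held 18271 to 41778 CPM of 6 fibroblast markers, against 696 to 2867 CPM in PSCs. Of 7 macrophage and leukocyte markers they held 1098 to 10460 CPM, against 35.7 to 570 CPM in PSCs. The name S100β-GFP+ Schwann cells is that of the study for the sorted cells, and differences from them are not differences from Schwann cells alone. S100β-GFP+ libraries 14, 17 and 22 had 670 to 2404 CPM of 7 endothelial markers, where the other 5 had 38.0 to 120 CPM. In bulk RNA, fewer cells that use a gene and less of its RNA in each cell cannot be told apart.

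The promoters of the 3 enzyme genes are shown first, because these genes have closely related products and very different levels in PSCs. Each line gives the 250 bases before the RefSeq start of the gene (GRCm38.p6), 5′ to 3′ on the strand of the gene, and capitals mark 6-base motifs, written as their reverse complement where the match is on the other strand. The motifs searched on both strands were CATGTG, a site of MITF and its relatives, the related palindrome CACGTG, the SOX factor core ACAAAG and its variant form ACAATG. The Dct window lies at chr14:118052247-118052496 on the minus strand, the Tyrp1 window at chr4:80833963-80834212 on the plus strand and the Tyr window at chr7:87493513-87493762 on the minus strand.
Dct: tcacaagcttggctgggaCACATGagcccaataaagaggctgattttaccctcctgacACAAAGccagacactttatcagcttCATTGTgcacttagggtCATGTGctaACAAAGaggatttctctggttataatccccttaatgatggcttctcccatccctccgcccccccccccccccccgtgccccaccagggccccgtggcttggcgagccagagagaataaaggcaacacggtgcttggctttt
Tyrp1: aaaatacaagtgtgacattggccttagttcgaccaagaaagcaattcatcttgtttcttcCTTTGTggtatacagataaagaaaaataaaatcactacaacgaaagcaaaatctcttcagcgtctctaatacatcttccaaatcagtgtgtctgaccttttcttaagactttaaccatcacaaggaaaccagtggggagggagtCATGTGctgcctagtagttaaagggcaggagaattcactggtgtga
Tyr: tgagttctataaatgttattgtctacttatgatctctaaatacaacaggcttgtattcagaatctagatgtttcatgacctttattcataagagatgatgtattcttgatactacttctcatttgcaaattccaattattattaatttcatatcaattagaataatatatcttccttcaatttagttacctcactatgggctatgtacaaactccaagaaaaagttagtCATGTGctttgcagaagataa

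The Dct window held 5 matches, with CATGTG at 232 and 150 bases before the start, ACAAAG at 192 and 141 bases and ACAATG at 167 bases. Tyrp1 held ACAAAG at 190 bases and CATGTG at 46 bases, and Tyr held CATGTG at 21 bases. CATGTG occurred in all 3 enzyme promoters, and of 32851 RefSeq promoter windows of this length 12.3% held it. It is a site of MITF, which switches on these genes in pigment cells, so its presence is not read as an enrichment. The share of all windows was 6.02% for CACGTG, while ACAAAG was held by 16.5% of them and the variant ACAATG by 10.7%. RefSeq windows were matched for 6 of the 9 genes, and those of Mitf, Kit and Ednrb held none of the 4 motifs. Pmel, Mlana and Pax3 had no window among those used. The matches are descriptions of sequence, and Tyr, with CATGTG near its start, was close to absent from PSCs.

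Dct, the gene of dopachrome tautomerase (ENSMUSG00000022129, chromosome 14, 118012790 to 118052244, minus strand), was the gene of the group that set PSCs apart. The lowest, median and highest PSC libraries had 6.57, 76.9 and 119 CPM, from 42 to 1242 counts. The S100β-GFP+ libraries had 0, 0.150 and 1.32 CPM, and 3 of 8 had no count. The NG2-dsRed+ libraries had 0, 0 and 0.426 CPM, and 7 of 10 had no count. Every PSC library was above every other library. The means were 61.0 ± 46.3 (SD, n = 9), 0.344 ± 0.459 (SD, n = 8) and 0.0708 ± 0.138 CPM (SD, n = 10). The log2 fold change was 7.31 ± 0.73 (SE) over S100β-GFP+ Schwann cells and 9.37 ± 0.77 over NG2-dsRed+ cells. Since the other cell types had 18 and 5 counts in all, the same comparison was made on summed counts, where the ratio was 182 (95% exact interval 115 to 308) and 904 (387 to 2784). These intervals cover counting error only. Single libraries moved the fold changes: 7.94 without S100β-GFP+ library 22, and 10.31 without NG2-dsRed+ library 2, which held 3 of the 5 counts. An antisense gene, 4930435M08Rik, lies in an intron of Dct and shares no exon with it.

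Tyrp1, the gene of tyrosinase-related protein 1 (ENSMUSG00000005994, chromosome 4, 80834123 to 80851719, plus strand), was present in PSCs and, at a lower level, in S100β-GFP+ cells. PSC libraries had a lowest, median and highest level of 0.350, 19.5 and 37.7 CPM. S100β-GFP+ libraries had 0, 2.69 and 19.4 CPM, and NG2-dsRed+ libraries 0, 0 and 0.851 CPM. The overlap came from a few libraries. PSC library 18 had 2 counts of Tyrp1 where the other 8 PSC libraries had 9.70 CPM or more, and S100β-GFP+ library 1 had 134 of the 230 counts of its cell type where the other 7 reached at most 4.66 CPM. The means were 19.0 ± 10.6, 4.43 ± 6.26 and 0.137 ± 0.280 CPM. PSCs differed by 2.08 ± 0.66 on the log2 scale from S100β-GFP+ cells and by 6.85 ± 0.85 from NG2-dsRed+ cells. The first value was 3.04 without S100β-GFP+ library 1 and 1.67 without libraries 14, 17 and 22, and the second was 7.90 without NG2-dsRed+ library 2. S100β-GFP+ cells exceeded NG2-dsRed+ cells by 4.77 ± 0.85, by 3.81 without S100β-GFP+ library 1 and by 5.79 without NG2-dsRed+ library 2.

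Tyr, the gene of tyrosinase itself (ENSMUSG00000004651, chromosome 7, 87424771 to 87493512, minus strand), was not tested, as it fell below the filter on low counts. A single count was seen in PSC library 12 and none in the other 8. S100β-GFP+ cells had 16 counts in 5 of 8 libraries, at most 1.15 CPM, and NG2-dsRed+ cells 7 counts in 3 of 10. The ratio of summed counts between PSCs and S100β-GFP+ cells was 0.0383 (95% exact interval 0.000912 to 0.246). The 3 enzymes are paralogs, but transcripts of Tyrp1 shared no run of 30 bases with those of Dct or Tyr, and Dct and Tyr shared 17 such runs. Per kilobase of exons, the mean level in PSCs was 10.3 CPM for Dct, 6.71 for Tyrp1 and 0.00163 for Tyr.

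**Figure D1:**
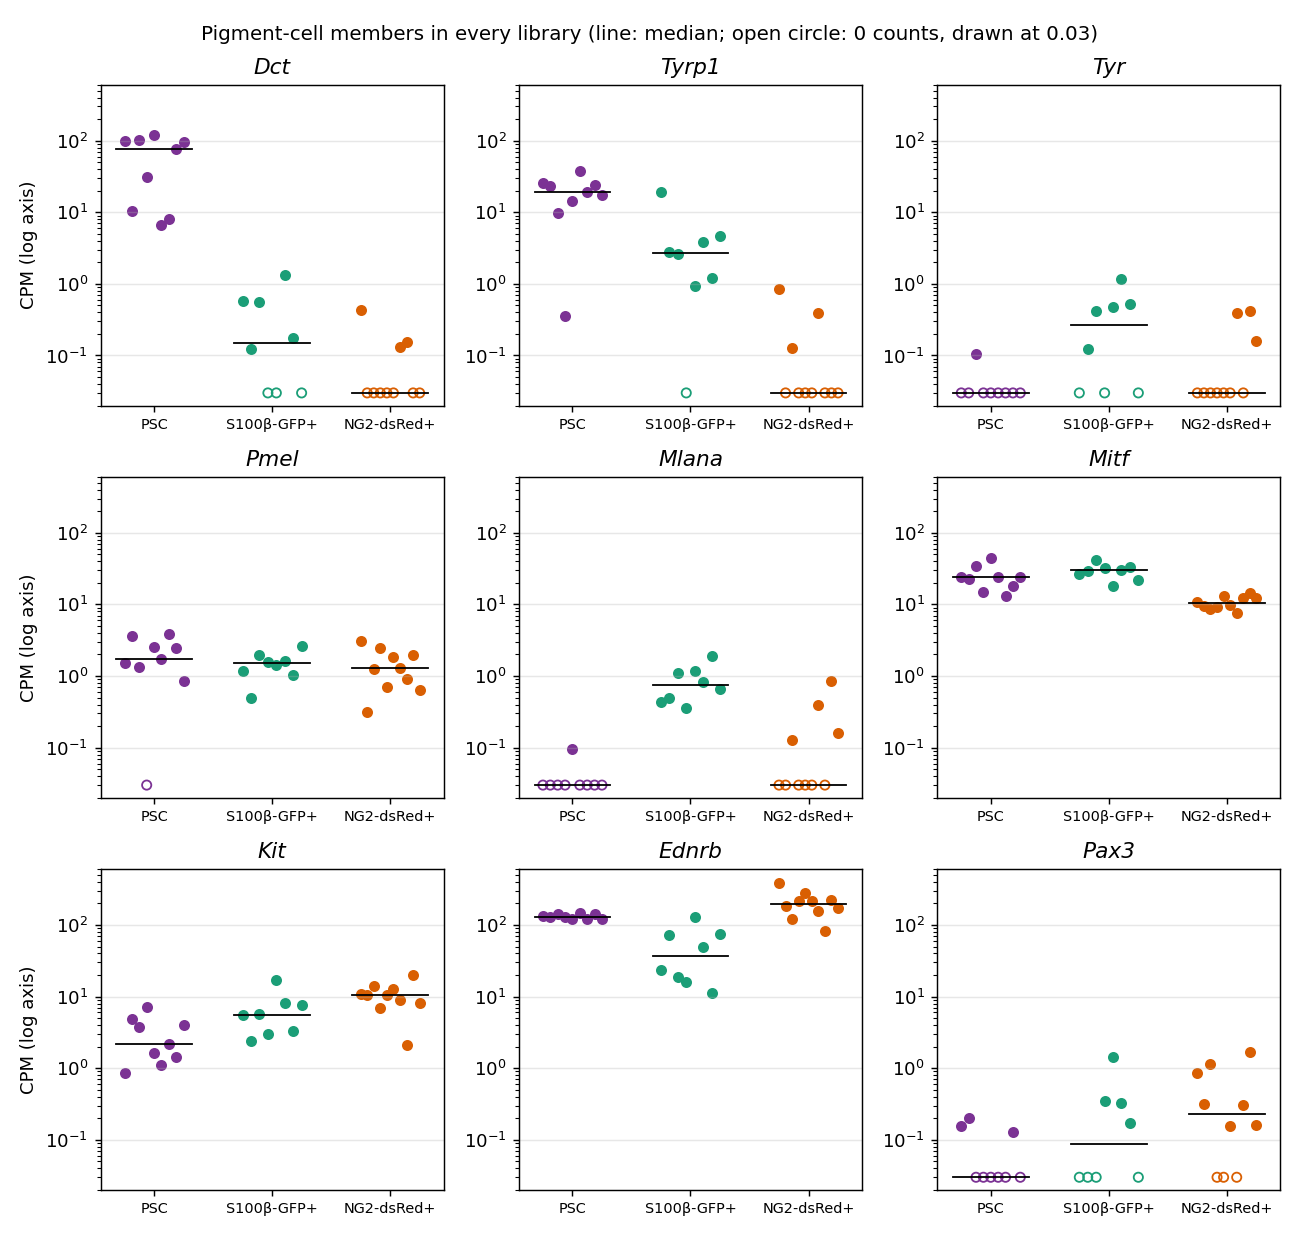
CPM of the 9 genes (y axis, log scale) in each library of the 3 cell types (x axis); points are libraries, lines are medians and open circles are libraries with no count. Dct is higher in all 9 PSC libraries (6.57 to 119 CPM) than in any other, Tyr and Mlana have 1 count each in PSCs, and Ednrb stays between 121 and 146 CPM in PSCs.

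The genes of the melanosome's structural proteins did not follow the enzymes. Pmel, which encodes the fibril protein of the early melanosome (ENSMUSG00000025359, chromosome 10, 128704195 to 128720238, plus strand), had a lowest, median and highest level of 0, 1.72 and 3.86 CPM in PSCs. It had 0.50 to 2.66 CPM in S100β-GFP+ cells and 0.315, 1.28 and 3.12 CPM in NG2-dsRed+ cells. The 3 groups overlapped almost fully. The log2 differences of PSCs were 0.43 ± 0.49 and 0.45 ± 0.46, and that between S100β-GFP+ and NG2-dsRed+ cells was 0.02 ± 0.49, with a sign that changed with the processing. Exons of Cdk2 and Dgka overlap Pmel on the opposite strand, and since no source used here gives the use of strand in counting, even these low counts are uncertain.

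Mlana, the gene of the melanosomal antigen MART-1 (ENSMUSG00000024806, chromosome 19, 29697824 to 29708634, plus strand), was not tested either. PSC library 20 had 1 count and the other 8 none. All 8 S100β-GFP+ libraries had counts, 41 in total, between 0.353 and 1.92 CPM, and NG2-dsRed+ cells had 11 counts in 4 of 10 libraries. Every S100β-GFP+ library thus lay above every PSC library, at levels of 2 to 11 counts, as was so for 10.3% of the tested genes. The ratio of PSC to S100β-GFP+ counts was 0.0149 (95% exact interval 0.000369 to 0.0880).

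Mitf, the regulator of the melanosome genes (ENSMUSG00000035158, chromosome 6, 97807052 to 98021349, plus strand), was at a similar level in both GFP+ populations. PSC libraries had a lowest, median and highest level of 13.0, 23.8 and 43.8 CPM, S100β-GFP+ libraries 18.0, 30.0 and 41.7 CPM and NG2-dsRed+ libraries 7.67, 10.3 and 14.4 CPM. PSCs overlapped both other cell types, whereas all S100β-GFP+ libraries were above all NG2-dsRed+ libraries. The log2 difference of PSCs was -0.27 ± 0.20 from S100β-GFP+ cells and 1.17 ± 0.20 from NG2-dsRed+ cells, and S100β-GFP+ exceeded NG2-dsRed+ cells by 1.44 ± 0.20. Mitf has several promoters, and the gene counts do not tell its isoforms apart. The sum of 7 macrophage and leukocyte markers, 1098 to 10460 CPM in S100β-GFP+ libraries, was 12.2 to 68.2 CPM in NG2-dsRed+ libraries, and its part in the Mitf difference was not tested.

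Pax3, a transcription factor of the early neural crest and of muscle progenitors (ENSMUSG00000004872, chromosome 1, 78101267 to 78197134, minus strand), was near the floor everywhere and was not tested. There were 5 counts in 3 of 9 PSC libraries, 11 counts in 4 of 8 S100β-GFP+ libraries and 33 counts in 7 of 10 NG2-dsRed+ libraries. The highest level was 0.202 CPM in PSCs, 1.42 CPM in S100β-GFP+ cells and 1.70 CPM in NG2-dsRed+ cells. The sum of 7 satellite cell and myoblast markers was 23.1 to 58.3, 9.93 to 71.7 and 68.4 to 165 CPM in the 3 cell types. Among S100β-GFP+ libraries this sum was highest in the same library as Pax3, library 17. The higher sum in NG2-dsRed+ cells lay in Des, with means of 17.9, 14.1 and 102 CPM. No other marker averaged more than 6.93 CPM in any cell type, and Pax7 averaged 4.39, 3.91 and 5.18 CPM.

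Kit, the receptor of stem cell factor (ENSMUSG00000005672, chromosome 5, 75574916 to 75656722, plus strand), was lowest in PSCs. The lowest, median and highest levels were 0.867, 2.15 and 7.18 CPM in PSCs, 2.37, 5.60 and 17.0 CPM in S100β-GFP+ cells and 2.13, 10.6 and 20.2 CPM in NG2-dsRed+ cells. All 3 ranges overlapped. The log2 difference of PSCs was -1.12 ± 0.43 from S100β-GFP+ cells and -1.82 ± 0.41 from NG2-dsRed+ cells. Without S100β-GFP+ libraries 14, 17 and 22 the former was -0.66, and without library 17 alone it was -0.76. Mast cells are rich in KIT, and their 8 markers summed to 1.05 to 20.6 CPM in PSC libraries, 1.11 to 52.2 CPM in S100β-GFP+ libraries and 17.0 to 67.9 CPM in NG2-dsRed+ libraries. PSCs had counts of 6 of the 8, with Cpa3 and Fcer1a at 0. S100β-GFP+ cells had counts of all 8, among them 377 of Gata2, 150 of Cma1 and 120 of Cpa3. Their sum was highest in libraries 11, 17 and 22 (41.4, 35.0 and 52.2 CPM), and their highest Gata2 level was 30.0 CPM. NG2-dsRed+ cells had counts of 5, with Mcpt4, Tpsb2 and Ms4a2 at 0, and 2573 of their counts were of Gata2. PSCs had 399 counts of Gata2. This gene, which other cells also use, had the most counts of the 8 markers for each cell type, so the sums do not measure mast cells alone. The part of mast cell RNA in the Kit differences was not tested.

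Ednrb, the endothelin receptor of migrating melanoblasts (ENSMUSG00000022122, chromosome 14, 103814625 to 103844402, minus strand), was the most even gene of the group in PSCs. The 9 PSC libraries had a lowest, median and highest level of 121, 130 and 146 CPM, from 744 to 1712 counts. The coefficient of variation among them was 0.0709, and only 6 of 15330 tested genes had a lower one, where the median gene had 0.479. S100β-GFP+ libraries spread 11.5-fold, from 11.3 through a median of 36.6 to 130 CPM, and NG2-dsRed+ libraries had 81.2, 199 and 384 CPM. PSCs lay between the others, and their range overlapped both. The log2 difference of PSCs was 1.42 ± 0.36 from S100β-GFP+ cells and -0.62 ± 0.33 from NG2-dsRed+ cells. Between S100β-GFP+ and NG2-dsRed+ cells it was -2.03 ± 0.36.

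Ednrb and Kit are also endothelial genes, so their levels are set beside the sum of 7 endothelial markers, among them Pecam1 and Cdh5. That sum was 88.5 to 604 CPM in PSCs, 38.0 to 2404 CPM in S100β-GFP+ cells and 1293 to 3212 CPM in NG2-dsRed+ cells. S100β-GFP+ library 17 had the highest value of its cell type for the markers, for Ednrb (130 CPM) and for Kit (17.0 CPM), and NG2-dsRed+ library 28 had the lowest of its cell type for all 3. Other S100β-GFP+ libraries departed from this order. Library 33 had the lowest marker sum, 38.0 CPM, with 73.9 CPM of Ednrb and 7.55 CPM of Kit. Library 14 had a sum of 670 CPM with 16.2 CPM of Ednrb and 3.00 CPM of Kit. In PSCs the marker sum varied while Ednrb did not: library 18 had the lowest sum, 88.5 CPM, with 130 CPM of Ednrb, and library 31 the highest, 604 CPM, with 122 CPM. The part of endothelial RNA in the Ednrb and Kit levels of the other cell types was not tested.

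**Figure D2:**
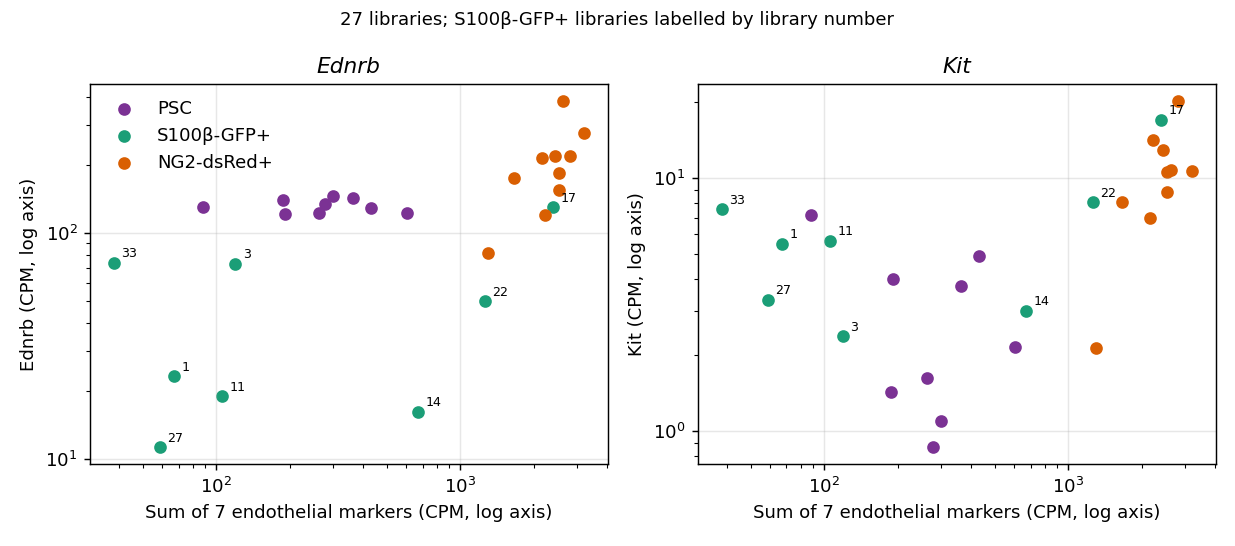
Ednrb (left) and Kit (right) in CPM (y axes, log scale) against the summed CPM of 7 endothelial markers (x axes, log scale) in the 27 libraries, coloured by cell type. PSC libraries form a flat row for Ednrb between 121 and 146 CPM, while S100β-GFP+ libraries run from 11.3 to 130 CPM. Among the latter, library 17 is at the top right, and library 33, with the lowest marker sum, has 73.9 CPM.

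Divided by exon length, the order of the genes within a cell type can be read. In PSCs the mean level was 31.0 ± 2.20 CPM per kilobase for Ednrb, 10.3 ± 7.85 for Dct, 6.71 ± 3.73 for Tyrp1, 3.92 ± 1.54 for Mitf, 0.870 ± 0.551 for Pmel and 0.337 ± 0.238 for Kit (SD, n = 9). Ednrb stood above Dct by more than both SDs, whereas Dct and Tyrp1, Tyrp1 and Mitf, and Pmel and Kit each differed by less than the larger SD of the pair. Mlana, Pax3 and Tyr followed at 0.0101, 0.00878 and 0.00163, which are levels of 1 to 5 counts in all and have no order. In S100β-GFP+ cells the order was Ednrb at 11.6 ± 9.64, Mitf at 4.73 ± 1.17, Tyrp1 at 1.57 ± 2.21, Mlana at 0.826 ± 0.491, Kit at 0.737 ± 0.529 and Pmel at 0.652 ± 0.281 CPM per kilobase, and Tyrp1, Mlana, Kit and Pmel overlapped. In NG2-dsRed+ cells Ednrb at 47.5 ± 19.7 was followed by Mitf at 1.75 ± 0.363 and Kit at 1.18 ± 0.537. Dct and Tyrp1 were at 0.0120 and 0.0484 there.

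**Figure D3:**
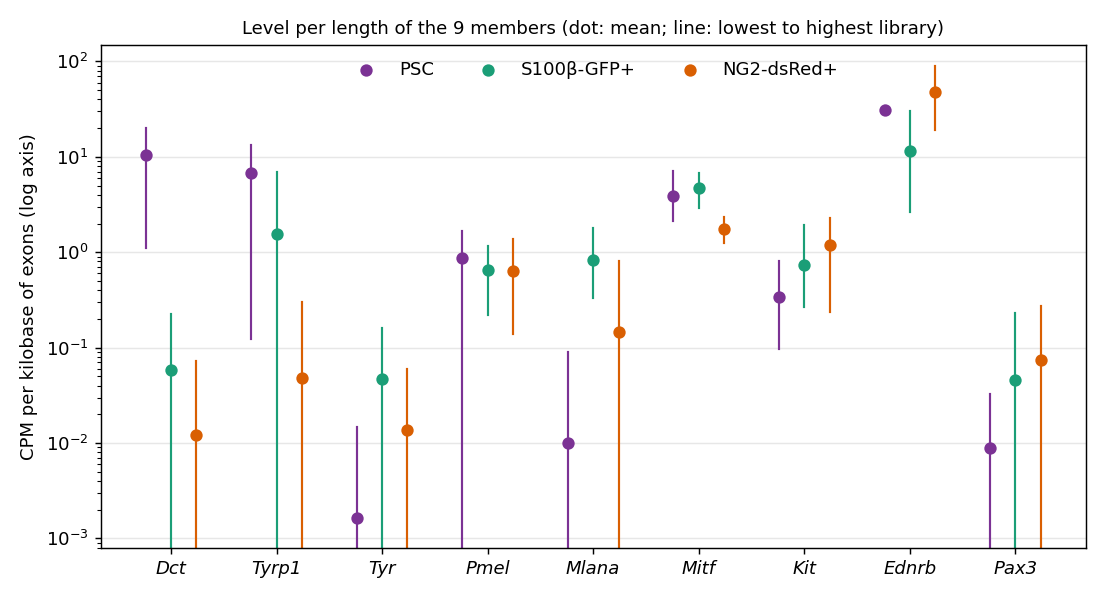
Mean CPM per kilobase of exons (dots, y axis, log scale) of the 9 genes (x axis) in the 3 cell types, with lines from the lowest to the highest library; lines that run off the bottom reach 0. In PSCs Ednrb (31.0), Dct (10.3) and Tyrp1 (6.71) lead, and Tyr is lowest (0.00163).

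With 6 of the 9 genes above the filter on low counts, the calls of edgeR's quasi-likelihood test can be counted. Against S100β-GFP+ Schwann cells 3 were past an adjusted p of 0.05 as higher in PSCs (Dct, Tyrp1 and Ednrb), 1 as lower (Kit) and 2 not, where 47.0% of all 15330 genes were past it, 22.9% higher and 24.1% lower. Against NG2-dsRed+ cells, 3 were higher (Dct, Tyrp1 and Mitf), 1 lower (Kit) and 2 not, where 44.0% of all genes were past the threshold, 20.9% higher and 23.1% lower. Between S100β-GFP+ and NG2-dsRed+ cells, Tyrp1 and Mitf were higher in the former, Ednrb was lower and 3 were not past it, beside 33.3% of all genes, 18.1% higher and 15.2% lower. Dct was the one gene of the 6 without overlap between PSCs and either other cell type, where 5.24% of all genes had all PSC libraries above all S100β-GFP+ libraries and 10.3% all below, and 5.08% and 8.83% against NG2-dsRed+ libraries. Mitf was the one without overlap between S100β-GFP+ and NG2-dsRed+ cells (7.21% of all genes were higher without overlap and 4.38% lower). The filter kept Dct on its PSC libraries alone, as no other library held more than 8 of its counts. It removed Tyr, Mlana and Pax3, which had fewer counts in PSCs than in either other cell type. The 9 genes were chosen with these contrasts known, and the comparisons share libraries, so nothing is read from the numbers of calls. Some of these calls changed with the processing. Kit was not past the threshold against S100β-GFP+ cells in a fit of these groups alone, with the share of counts on 3 abundant genes (Lars2, Gm23935 and Gm15564) as a term, without S100β-GFP+ library 17, library 22 or libraries 14, 17 and 22 together, and without PSC library 4, 20, 23, 31 or 34 or without PSC libraries 4, 12, 20, 34 and 36 together. Without the latter set Mitf was past it as lower than in S100β-GFP+ cells (-0.63). Tyrp1 was not past it against S100β-GFP+ cells without libraries 14, 17 and 22. Ednrb was past it as lower than in NG2-dsRed+ cells with only the groups compared (-0.57). Between S100β-GFP+ and NG2-dsRed+ cells, Dct was past it with the share as a term (2.43) and without PSC libraries 6, 18, 23 and 31 (2.09), and Kit without S100β-GFP+ library 17 (-1.06).

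Among the PSC libraries themselves, Dct was lower where more of the counts lay on Lars2, Gm23935 and Gm15564. The libraries were divided at the median of that share. The 5 libraries with 3.64% to 17.8% of their counts on Lars2, Gm23935 and Gm15564 (libraries 4, 12, 20, 34 and 36) had 97.4, 103, 119, 76.9 and 97.0 CPM of Dct. The 4 libraries with 27.7% to 36.6% (libraries 6, 18, 23 and 31) had 10.3, 31.5, 6.57 and 8.01 CPM. The sets did not overlap, and their means of 98.5 ± 15.0 (SD, n = 5) and 14.1 ± 11.7 CPM (SD, n = 4) differed 6.99-fold. Library 18 was intermediate, at a log2 CPM of 4.99 where library 6 had 3.40 and library 34 had 6.27. The sets thus follow the share and not a gap in Dct. On the scale of mean log2 CPM the difference was 3.06, where all tested genes had a median of 0.04 and a 5th and 95th percentile of -1.14 and 1.77. Without overlap in this direction were 7.72% of all genes and 7.30% in the other. The split was seen in these same libraries, and no test was made of it.

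The other genes of the group did not split in this way. The same log2 difference was 0.76 for Tyrp1, 0.60 for Mitf, 0.14 for Pmel, 0.01 for Ednrb and -0.55 for Kit, and the sets of libraries overlapped for all 5. Tyrp1 was at 9.70 to 25.4 CPM in the first set and, apart from library 18, at 19.5 to 37.7 CPM in the second. Library 18 also had no count of Pmel and the highest level of Kit among PSCs. Macrophage and leukocyte markers summed to 35.7 to 128 CPM and 133 to 570 CPM, with the maximum in library 18, and 6 of the 7 had counts in PSCs, with Fcgr1 at 0. Most of this sum was Lyz2, with a mean of 170 CPM in PSCs. Cd68, Csf1r and Ptprc had means of 3.25, 1.36 and 1.07 CPM, and Mrc1 and Adgre1 were lower still. The part of these markers in the Dct difference, and that of the counts on the 3 genes, was not tested. Fitted without the second set, Dct exceeded S100β-GFP+ Schwann cells by 8.04 and NG2-dsRed+ cells by 10.13 on the log2 scale. Without the first set the values were 5.20 and 7.21, and with the share of the 3 genes as a term 5.61 and 8.04, so Dct stood above both other cell types in each set.

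**Figure D4:**
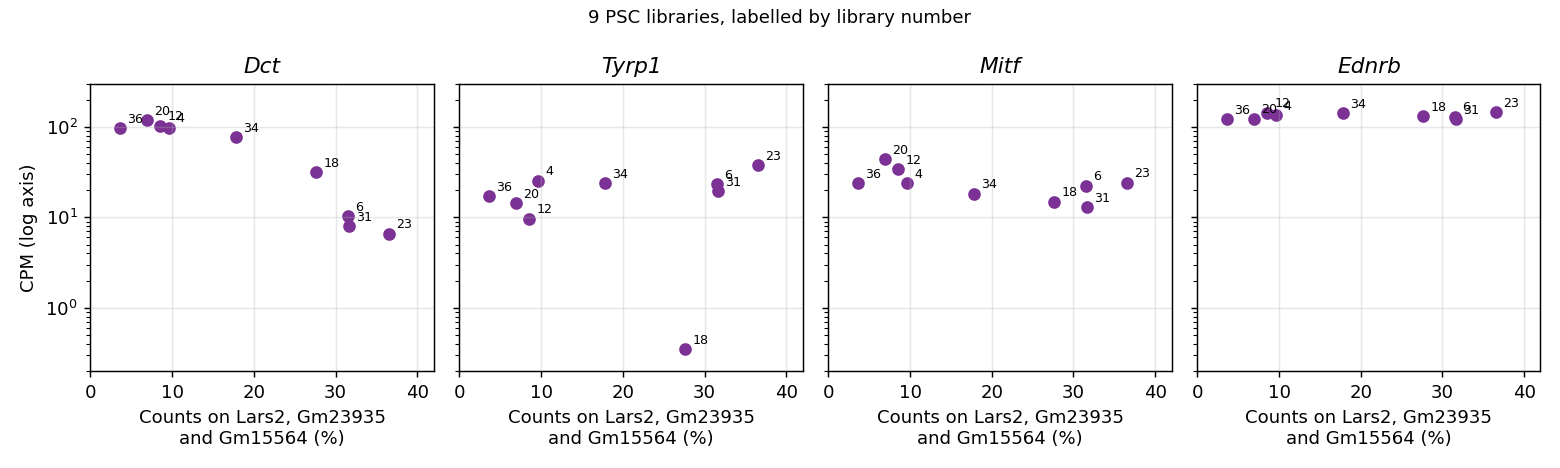
CPM of Dct, Tyrp1, Mitf and Ednrb (y axes, log scale) in the 9 PSC libraries against the percentage of their counts on Lars2, Gm23935 and Gm15564 (x axes), with library numbers beside the points. Dct is at 76.9 to 119 CPM in the 5 libraries with the lowest percentages and at 6.57 to 31.5 CPM in the other 4, while Ednrb is flat and Tyrp1 departs from the rest only in library 18.

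Whether the genes varied together among libraries of one cell type was asked with log2 CPM and permutation tests, using genes with a count in every library. The tests were exact in PSCs and S100β-GFP+ cells and used 100000 random permutations in NG2-dsRed+ cells. In PSCs, 10 pairs of Dct, Tyrp1, Mitf, Kit and Ednrb were computed, and none passed after Benjamini-Hochberg adjustment, with 1 below an unadjusted p of 0.05. No coefficient is given for the pairs with Dct, as its libraries formed separate sets. The pair below 0.05 was Tyrp1 and Kit (Pearson's r = -0.69, exact permutation p = 0.0107, adjusted p = 0.107, and Spearman's rho = -0.73, exact permutation p = 0.0311, adjusted p = 0.311). Without the 2 libraries farthest from the median of Tyrp1 the coefficient was -0.41, so this relation rested on those libraries. In S100β-GFP+ cells none of 10 pairs passed, and the strongest was Mitf and Ednrb (Pearson's r = -0.78, exact permutation p = 0.0199, adjusted p = 0.199, and Spearman's rho = -0.86, exact permutation p = 0.0107, adjusted p = 0.107), with -0.64 after leaving out the 2 farthest libraries. In NG2-dsRed+ cells none of 6 pairs passed, adjusted or unadjusted.

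Other genes with roles in pigment cells were counted from a list of 17 that leaves out the 9 genes above. Not all of them are confined to pigment cells. The filter on low counts kept 8 of them, and Slc45a2, Oca2, Slc24a5, Gpr143, Mc1r, Trpm1, Tspan10, Mlph and Mreg fell below it. Against S100β-GFP+ Schwann cells no gene of the 8 was higher in PSCs, 6 were lower and 2 did not pass, where 47.0% of all genes passed and 24.1% were lower, with a median log2 fold change of -1.44 beside 0.04 over all genes. Against NG2-dsRed+ cells PSCs had 3 higher and 2 lower genes while 3 did not pass, where 44.0% of all genes passed, with a median of -0.23 beside 0.02. Gpnmb, a melanosomal and macrophage glycoprotein, had 18.4 ± 9.31 CPM in PSCs, between S100β-GFP+ Schwann cells at 55.0 ± 24.0 and NG2-dsRed+ cells at 0.998 ± 0.511. It was lower in PSCs than in the former (log2 fold change -1.59, SE 0.31, adjusted p = 9.69e-05) and higher than in the latter (4.18, SE 0.35, adjusted p = 6.60e-11). Slc7a11, the cystine transporter that supplies cysteine for pheomelanin, had 2.91 ± 3.55 CPM in PSCs and 38.4 ± 26.4 in S100β-GFP+ cells (log2 fold change -3.78, SE 0.58, adjusted p = 3.30e-06). Bace2, a protease that cuts PMEL, was lower in PSCs (6.22 ± 2.62 CPM) than in both S100β-GFP+ cells (20.9 ± 9.42) and NG2-dsRed+ cells (24.1 ± 8.46), with log2 fold changes of -1.75 (SE 0.27, adjusted p = 4.40e-06) and -1.96 (SE 0.27, adjusted p = 5.38e-07). Atp7a, which loads tyrosinase with copper, was lower by a smaller step (16.2 ± 6.98 CPM against 27.2 ± 3.91 and 27.9 ± 6.34, log2 fold changes of -0.74 and -0.78, adjusted p = 0.0436 and 0.0288). The macrophage and leukocyte markers, like Gpnmb, were higher in S100β-GFP+ cells than in PSCs. Against NG2-dsRed+ cells only Lyz2 among them had a higher mean in PSCs (170 against 27.1 CPM), and the others had lower means. The part of these markers in the Gpnmb differences was not tested. The count against NG2-dsRed+ cells fell from 5 to 3 without PSC library 4, without PSC library 36, and with the share of the 3 genes as a term.

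The 22 genes of melanosome assembly and transport, which all cells with lysosome-related organelles need, were all tested. Against S100β-GFP+ cells 5 were higher in PSCs, 9 lower and 8 did not pass (median log2 fold change -0.29), so 63.6% passed where 47.0% of all genes did. Against NG2-dsRed+ cells PSCs had 7 higher and 2 lower genes while 13 did not pass (median 0.16), so 40.9% passed, near the 44.0% of all genes. The adaptor subunits Ap3d1 and Ap3b1 had 68.3 ± 15.3 and 54.2 ± 7.88 CPM in PSCs and 95.5 ± 13.0 and 66.9 ± 10.9 CPM in S100β-GFP+ cells, with log2 fold changes of -0.48 (SE 0.13, adjusted p = 0.00280) and -0.30 (SE 0.11, adjusted p = 0.0256). Myo5a, the myosin that carries melanosomes, lay between the other cell types, lower in PSCs than in S100β-GFP+ cells (-0.56, SE 0.19, adjusted p = 0.0148) and higher than in NG2-dsRed+ cells (0.79, SE 0.18, adjusted p = 0.000569). Dtnbp1, the dysbindin subunit of the BLOC-1 complex, had 27.4 ± 14.3 CPM in PSCs and 67.6 ± 14.7 in S100β-GFP+ cells (-1.30, SE 0.20, adjusted p = 4.24e-06), and 25.6 ± 3.88 in NG2-dsRed+ cells, from which PSCs differed by 0.09 (SE 0.19, adjusted p = 0.724). The 14 genes past the threshold against S100β-GFP+ cells became 7 without PSC libraries 4, 12, 20, 34 and 36.

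Of 23 listed transcription factors of the neural crest, of pigment cells and of the MITF family, 17 were tested. Against each other cell type 15 of them passed, where 47.0% and 44.0% of all genes did. In PSCs 8 were higher and 7 lower than in S100β-GFP+ cells (median 0.39). Against NG2-dsRed+ cells 6 were higher and 9 lower (median -1.31). The 4 named below were picked by mean CPM over all libraries, and none of the 7 lower than in S100β-GFP+ cells is among them. Sox10, which activates Mitf and Dct in pigment cells and is kept in Schwann cells, had 506 ± 103 CPM in PSCs where S100β-GFP+ Schwann cells had 20.2 ± 12.0 and NG2-dsRed+ cells 4.45 ± 2.44. The log2 fold changes were 4.65 (SE 0.37, adjusted p = 1.46e-11) and 6.83 (SE 0.37, adjusted p = 6.96e-15). Foxd3, which holds crest cells in a glial rather than a pigment state, was higher by 5.24 (SE 0.41, adjusted p = 1.38e-11) and 7.66 (SE 0.43, adjusted p = 1.06e-14), at 256 ± 106 CPM in PSCs. Zeb2 was the most abundant, at 863 ± 231, 307 ± 130 and 149 ± 33.2 CPM, with log2 fold changes of 1.49 (SE 0.22, adjusted p = 2.37e-06) and 2.53 (SE 0.22, adjusted p = 7.72e-11). Ets1 was higher in PSCs (89.6 ± 19.3 CPM) than in S100β-GFP+ cells (45.6 ± 48.0, log2 fold change 0.98, SE 0.38, adjusted p = 0.0345) and lower than in NG2-dsRed+ cells (234 ± 66.4, -1.39, SE 0.36, adjusted p = 0.00225). Sox10 also served above as a marker of Schwann cells and was high in earlier results of these libraries, so it is no independent evidence of a direction for the list.

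Of 15 listed ligands and modifiers of the melanoblast receptors, 11 were tested. Against S100β-GFP+ cells 1 was higher in PSCs, 5 were lower and 5 did not pass (median -0.59), where 22.9% of all genes were higher and 24.1% lower. Without S100β-GFP+ libraries 14, 17 and 22 the same count was 3 higher and 3 lower. Against NG2-dsRed+ cells 1 was higher, 5 were lower and 5 did not pass (median -0.50), where 20.9% of all genes were higher and 23.1% lower. Kitl, the ligand of KIT, had 33.4 ± 15.4 CPM in PSCs where S100β-GFP+ Schwann cells had 95.9 ± 68.0 and NG2-dsRed+ cells 345 ± 77.3, with log2 fold changes of -1.52 (SE 0.35, adjusted p = 0.000684) and -3.37 (SE 0.36, adjusted p = 8.68e-09). Edn1, an endothelin that EDNRB binds, had 10.1 ± 4.11, 103 ± 58.8 and 155 ± 112 CPM, with log2 fold changes of -3.33 (SE 0.45, adjusted p = 3.69e-07) and -3.93 (SE 0.45, adjusted p = 2.75e-08). Ece1, the enzyme that activates endothelins, did not pass against S100β-GFP+ cells (0.25, SE 0.27, adjusted p = 0.468) and was lower than in NG2-dsRed+ cells (-0.71, SE 0.25, adjusted p = 0.0249). Mgrn1, a ubiquitin ligase named for the mahoganoid coat colour, showed -0.23 (SE 0.16, adjusted p = 0.233) and -0.50 (SE 0.15, adjusted p = 0.00663). The 6 genes past the threshold against NG2-dsRed+ cells became 3 without PSC libraries 4, 12, 20, 34 and 36.

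**Figure D5:**
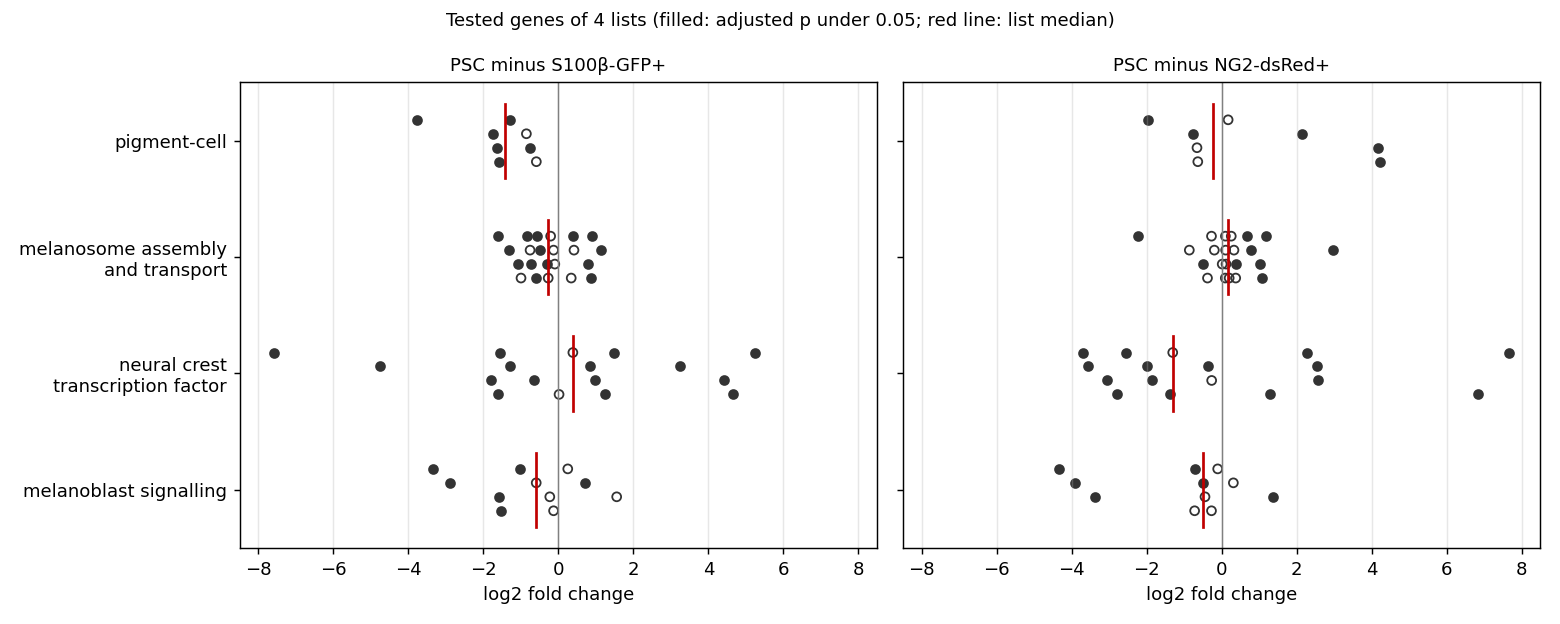
Log2 fold change (x axes) of the tested genes of 4 lists (y axis) between PSCs and S100β-GFP+ cells (left) and between PSCs and NG2-dsRed+ cells (right); points are genes, filled where the adjusted p is under 0.05, and red lines are list medians. The pigment-cell list lies left of 0 against S100β-GFP+ cells (median -1.44), and the transcription factors spread widest.

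Over all 27 libraries, the genes whose log2 CPM was most like that of each tested member were found by Pearson's r, as a description that mostly reflects the order of the 3 cell types. Dct was most like D030068K23Rik (0.968), 6430503K07Rik (0.966) and Gm20754 (0.962), which averaged 35.3, 5.47 and 27.8 CPM in PSCs and less than 1 CPM in the other cell types. Of these only D030068K23Rik was split between the sets of PSC libraries as Dct was, at 23.5 to 81.5 CPM in the first and 4.23 to 13.8 CPM in the second. Tyrp1 was most like Nlgn1 (0.933), a synaptic adhesion gene, Itgb8 (0.924) and Ivns1abp (0.923). Mitf was most like Snx10 (0.870), Ptpro (0.865) and Creb5 (0.855), Kit like Sh3glb1 (0.855), Rapgef1 (0.847) and Nrbp1 (0.843), and Ednrb like Plod1 (0.869), Ctnnbip1 (0.867) and Cdc42ep3 (0.865). For Pmel no gene exceeded 0.774 (Zfp687, followed by Ermp1 and Rbm33).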

How the data were processed

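RNA of cells sorted from diaphragm, pectoralis, forelimb and hindlimb muscles had been amplified with a SMART-Seq v4 kit before sequencing. After trimming, the authors aligned reads using HISAT2 and deposited HTSeq counts per gene, raw and not normalized. The submitters' processing notes name GRCm38. No source used here gives tool versions or the use of strand. Each of the 27 columns was matched to its sample through the library number, and 9 libraries were not analysed here. No pair of libraries of a cell type was identical or within sampling noise (smallest chi-square per degree of freedom 8.92).

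Positions, symbols and exon lengths came from GENCODE M21, which held 52403 of 52636 identifiers (99.56%). In R 4.3.3, edgeR 4.0.16 fitted the 3 cell types together with TMM scaling, filterByExpr (minimum count 10, 15330 genes kept), its quasi-likelihood test, and a Benjamini-Hochberg threshold of 0.05. Log2 CPM had a prior count of 2. Fold changes are the first named cell type minus the second. Reads carry no molecular identifiers, so PCR copies count as molecules, and low genes rest on few counts. The scripts were tested on simulated counts. Some Schwann cell markers, and sums over them, are not reported here.

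The 9 genes and all lists were chosen with earlier results of these data known. From each list the 4 tested genes with the highest mean CPM over all libraries are named, from the pigment-cell list also those that did not pass the filter, and for each tested member the 3 genes most like it. Singling out the coefficient of variation of Ednrb, the split of Dct among PSC libraries and the libraries named came after values were seen. Alternatives were DESeq2 1.42.0 (Wald test), its size factors, no filter on low counts, only the groups compared in the fit, a term for the share taken by Lars2, Gm23935 and Gm15564, a prior count of 0.5, fits without S100β-GFP+ library 22 or libraries 14, 17 and 22, and leaving out each library. Fits without either set of PSC libraries were chosen after seeing the data.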

Additional observations from a re-analysis of the deposited data

Results flagged for a closer look

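In each cell type, the highest or lowest library of each of the 9 genes was compared with the others by Dixon's test on log2 CPM. A library stood apart in 7 of 27 groups, and most of the 7 rest on very few counts. The test's rate of about 1 in 20 does not hold for groups that are mostly 0. For Tyr and Mlana in PSCs, a single count among libraries with none had to stand apart. The 7 are thus not read as an excess over chance.

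PSC library 18 stood apart for Tyrp1, with 0.350 CPM (2 counts) against 9.70 to 37.7 CPM in the other 8, and for Pmel, with 0 CPM against 0.842 to 3.86 CPM. It also had the highest sum of macrophage and leukocyte markers among PSCs, 570 CPM, and the lowest endothelial sum, 88.5 CPM. The former was nearly all Lyz2, whose highest PSC level was 566 CPM. Single counts set apart PSC library 12 for Tyr (0.104 CPM) and PSC library 20 for Mlana (0.0956 CPM). NG2-dsRed+ library 2 stood apart for Dct, with 0.426 CPM (3 counts) against at most 0.152 CPM, and NG2-dsRed+ library 28 for Kit, with 2.13 CPM (14 counts) against 6.94 to 20.2 CPM. S100β-GFP+ library 17 stood apart for Pax3, with 1.42 CPM (6 counts) against at most 0.353 CPM. What sets these libraries apart was not tested.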

How the results depend on the processing

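No paired analysis was possible, because every library has its own number and the labels do not say which libraries share a mouse. All libraries were fitted as unpaired. Under every alternative run Dct stood above both other cell types in PSCs, with log2 fold changes of 5.20 to 8.04 and 7.21 to 10.31. The genes past the threshold between PSCs and S100β-GFP+ cells were 7198 (3511 higher, 3687 lower), 6825 to 7918 when leaving out each library, and 16556 (3907 higher, 12649 lower) with no filter on low counts. Between S100β-GFP+ and NG2-dsRed+ cells they were 5099, and 10586 with no filter. For pigment-cell genes between PSCs and NG2-dsRed+ cells the count of 5 became 8 with no filter, 3 with only the groups compared, 3 with the share of the 3 genes as a term and 3 to 5 when leaving out each library. Without PSC libraries 4, 12, 20, 34 and 36, an alternative chosen after seeing the data, 7 melanosome assembly genes passed against S100β-GFP+ cells and 3 signalling genes against NG2-dsRed+ cells. Of the pairs within PSCs, 0 to 1 passed by Pearson's r when leaving out each library, the 1 being Tyrp1 and Kit without library 6 (exact permutation, adjusted p = 0.0335, and 0.107 by Spearman's rho). By Spearman's rho Dct and Mitf passed without library 23 (exact permutation, adjusted p = 0.0223, and 0.366 by Pearson's r). With the share of the 3 genes as a term, this pair of genes did not pass in all 9 PSC libraries. Its adjusted p was then 0.948 by Spearman's rho and 0.856 by Pearson's r (exact permutation). As Dct was lower in the PSC libraries with a higher share, nothing is read from this pair. Pmel between S100β-GFP+ and NG2-dsRed+ cells changed sign: -0.017 with no filter, -0.024 with the share as a term, -0.0020 without S100β-GFP+ library 22, -0.047 without libraries 14, 17 and 22, and -0.14 to 0.25 when leaving out each library. Mitf between PSCs and S100β-GFP+ cells was 0.021 without PSC libraries 6, 18, 23 and 31, beside -0.27 with them. The cause of these changes was not tested. Depth limits Tyr, Mlana and Pax3, whose differences rest on 1 to 41 counts per cell type.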
